A study of Mus musculus with 95 samples.

Results

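Mitochondria keep a small circular genome of their own, and the mitochondrially encoded genes are its products: messenger RNAs of subunits of the respiratory chain and of ATP synthase, the 2 ribosomal RNAs of the mitochondrial ribosome, and the transfer RNAs that it uses. They were taken as every gene of the deposited count table whose symbol, looked up from its Ensembl identifier, starts with mt-. There were 37 such genes of 39179, namely 13 protein genes, 2 ribosomal RNA genes and 22 transfer RNA genes. RNA from the cerebral cortex of C57BL/6 mice was sequenced in 95 libraries, 48 of mice aged 6 months and 47 of mice aged 10 months. The knock-in mice were heterozygous for a huntingtin allele with 20, 50, 92 or 140 CAG repeats, the repeat that is lengthened in Huntington's disease, and are called Q20, Q50, Q92 and Q140. The wild types had shared cages with Q20 mice or with Q50 mice and form a group for each housing, while mice of the Q92 and Q140 lines were housed with their own line. Each line or housing group had 4 female and 4 male libraries at each age, except for 3 male Q140 libraries at 10 months. Line, housing and cohort move together for Q92 and Q140, so for them genotype and housing cannot be told apart. The labels number the libraries without saying that each is a separate animal, so p-values below measure the spread between these libraries.

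Mitochondrial DNA is transcribed from both strands into long precursors that cover nearly the whole circle. Transfer RNAs lie between most of the other genes, and cutting them out releases the messenger and ribosomal RNAs, most of which then receive short poly(A) tails. A single polymerase, Polrmt, with the factors Tfam and Tfb2m, starts transcription, and the nucleus supplies all proteins that cut, modify, stabilise and translate these RNAs. Neurons in the cortex depend on the respiratory chain, and a mitochondrial defect has long been discussed in Huntington's disease. In whole tissue, a change in the number of cells or mitochondria and a change in RNA per cell cannot be told apart.

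In the GENCODE M21 annotation of GRCm38 both ribosomal RNA genes and all protein genes but mt-Nd6 lie on the plus strand of chrM, which is the sequence of the heavy-strand transcript, and mt-Nd6 lies on the minus strand. The build used by the authors is not given in the sources used here, but the gene lengths implied by their values equalled those of this annotation in 31 of the 31 members with a count above 0, after rounding to 1 base. Neighbouring members share bases in 9 places, and 2 of these overlaps join messages that are carried on a single RNA. There the downstream reading frame opens inside the upstream one. The upstream genes mt-Atp8 (chrM:7766-7969) and mt-Nd4l (chrM:9877-10173), both on the plus strand, are shown because reads from the shared bases, in capitals, fit either gene. The capitals begin with the ATG that opens mt-Atp6 and mt-Nd4, respectively.
mt-Atp8: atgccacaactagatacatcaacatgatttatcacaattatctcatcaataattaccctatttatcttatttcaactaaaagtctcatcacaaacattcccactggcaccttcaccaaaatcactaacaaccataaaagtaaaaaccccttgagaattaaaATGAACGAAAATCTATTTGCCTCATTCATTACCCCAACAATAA
mt-Nd4l: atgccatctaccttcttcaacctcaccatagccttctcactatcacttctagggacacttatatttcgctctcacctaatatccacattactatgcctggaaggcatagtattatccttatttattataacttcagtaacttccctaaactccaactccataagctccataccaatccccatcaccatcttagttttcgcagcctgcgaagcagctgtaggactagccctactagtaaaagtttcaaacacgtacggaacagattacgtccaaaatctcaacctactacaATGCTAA
The shared stretch has 43 bases in the first pair and 7 in the second. On opposite strands, mt-Nd5 and mt-Nd6 share 14 bases, and whether the counting used strand is not given in the sources used here.

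Mitochondrially encoded genes took 9.08% to 14.7% of all counts in a library, with a median of 10.6% over the 95 libraries. Libraries held 30.3 M to 41.1 M counts in total, with a median of 34.1 M, so the messenger and ribosomal RNAs were measured with little counting error and the spread between libraries set the precision. Subunits of cytochrome c oxidase (complex IV), which passes electrons to oxygen, held 46.6% of the mitochondrial counts. The 7 subunits of NADH dehydrogenase (complex I), the entry point of electrons, held 27.1%. ATP synthase held 10.2%, cytochrome b of complex III 8.61% and the ribosomal RNAs 7.51%. The transfer RNAs gave 720 counts over all libraries together.

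Per unit of length, mt-Co1, the catalytic subunit of cytochrome c oxidase, was the highest member with a median of 19468 FPKM (range 16514 to 25551), the authors' unit, which divides reads by gene length and library depth. It was above the next gene, mt-Co2, in 95 of 95 libraries. mt-Co2 (13823 FPKM) and mt-Atp6 (13701 FPKM) were not separated, with mt-Co2 the higher in 60 libraries. Below mt-Co3 (12581 FPKM) and mt-Cytb (7965 FPKM), mt-Atp8 (7046 FPKM) and mt-Nd1 (7014 FPKM) were close as well, with mt-Atp8 the higher in 57 libraries. mt-Nd4 (6253 FPKM) and mt-Nd2 (4983 FPKM) followed and were each above the next gene in 95 of 95 libraries. The lower end held mt-Rnr1 (3303 FPKM), mt-Nd5 (3035 FPKM), mt-Rnr2 (3023 FPKM) and mt-Nd3 (2866 FPKM). Their order varied, since each of the first 3 was above the next in 51 to 73 libraries. mt-Nd6 (2433 FPKM), the only protein gene of the light-strand transcript, and mt-Nd4l (2073 FPKM) were lowest. The median of mt-Co1 was thus 9.39 times that of mt-Nd4l, although both genes lie on the same precursor, and 5.48 times with the nuclear copy described next added to mt-Nd4l.

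**Figure D1:**
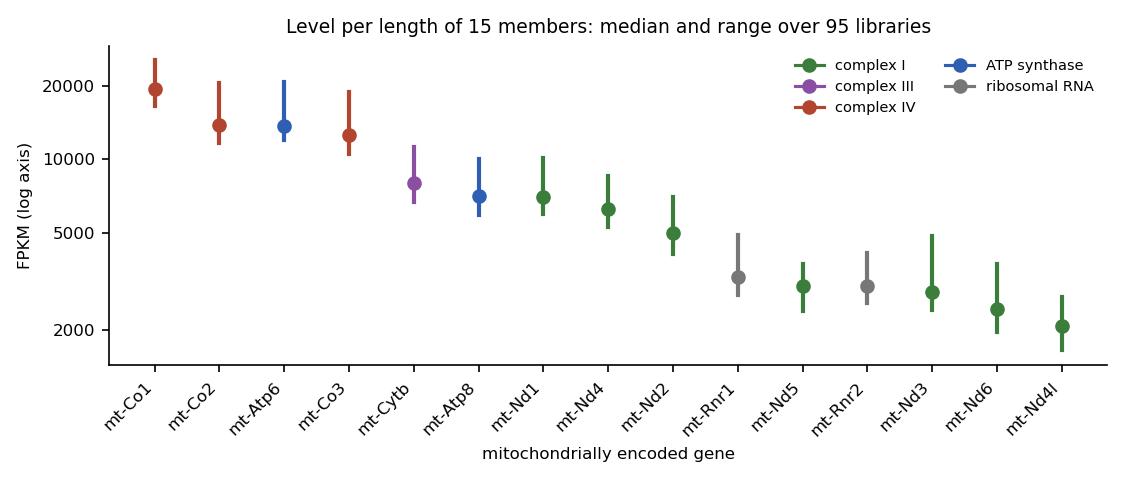
Level per length of the 15 messenger and ribosomal RNA members, in FPKM on a log axis. Points are medians and bars the lowest to highest of 95 libraries, coloured by the complex the product belongs to. mt-Co1 leads with a median of 19468 FPKM and mt-Nd4l, without the reads assigned to its nuclear copy, is lowest with 2073 FPKM.

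Genes that share a message had unlike values per length. The median of mt-Atp6 was 1.94 times that of mt-Atp8, and that of mt-Nd4 was 3.02 times that of mt-Nd4l. As each pair is carried on a single RNA, these ratios do not show different amounts of the message. The counts of mt-Atp8 and mt-Atp6 were whole numbers in all libraries. How reads from their shared bases were assigned is not given in the sources used here. For mt-Nd4l a nuclear copy bears on the value: the pseudogene Gm10222 matches 294 bases of mt-Nd4l without a mismatch, and it was counted at 333 to 554 CPM, the counts scaled to a common library total, with a median of 436 CPM, beside 489 to 807 CPM (median 616) for mt-Nd4l. Of the counts of the pair, 51.6% to 69.0% were assigned to mt-Nd4l. The counts of mt-Nd4l were not whole numbers (to within 1e-06) in any library, which shows that reads were divided. With both genes summed over the length of mt-Nd4l the median was 3555 on the FPKM scale, below mt-Nd4 but above mt-Rnr1 and 4 further members, so that the place of mt-Nd4l at the low end depends on how its reads were divided. Annotated nuclear copies of at least 90% identity existed for 11 members, and copies of 7 of them had a row of their own in the count table. Apart from Gm10222, the largest were Gm13340 (97.6% identical to mt-Co1, mean 24.0 CPM) and Gm13341 (95.9% identical to mt-Co2, mean 14.7 CPM), small beside the 30398 and 9568 CPM of the members. The other copies with a row were under 1 CPM on average. Counts of mt-Nd5 were also not whole in any library. Those of mt-Nd2, mt-Co2 and mt-Co1 were whole in 2.11%, 2.11% and 5.26% of libraries.

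The 2 ribosomal RNAs, mt-Rnr1 of the small and mt-Rnr2 of the large subunit of the mitochondrial ribosome, thus lay in the lower part of the order, in libraries that the labels call mRNA and that were made from an enriched fraction of the RNA. In counts, mt-Rnr2 exceeded mt-Rnr1 by a ratio of 1.39 to 1.57 (median 1.47) in the 6-month libraries and of 1.49 to 1.66 (median 1.56) in the 10-month libraries. The ranges of this ratio at the 2 ages did not overlap in Q20 mice, where they were 1.43 to 1.51 and 1.52 to 1.62, nor in Q140 mice, where they were 1.43 to 1.51 and 1.53 to 1.63. They overlapped in the other 4 groups.

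Of the 22 transfer RNAs, 59 to 75 bases long, 6 had no count in any library and none passed the filter on low counts. A library held 0 to 19 transfer RNA counts with a median of 7. Of the 720 counts, 645 (89.6%) lay in the 8 transfer RNA genes annotated on the light-strand transcript, all of which had counts. The other 75 lay in the 14 annotated on the heavy-strand transcript, of which 8 had counts. The leading ones are mt-Te, for glutamate, with 273 counts, and mt-Ts1, a serine transfer RNA, with 190. They are shown because both lie against a protein gene, mt-Te (chrM:14071-14139, minus strand) ending where mt-Nd6 begins and mt-Ts1 (chrM:6870-6938, minus strand) sharing 3 bases, in capitals, with the end of mt-Co1 on the other strand.
mt-Te: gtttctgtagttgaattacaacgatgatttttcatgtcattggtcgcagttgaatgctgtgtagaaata
mt-Ts1: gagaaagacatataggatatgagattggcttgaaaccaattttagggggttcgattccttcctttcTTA
Next came mt-Tn with 74, mt-Tm with 43, mt-Tc with 34 and mt-Tq with 28 counts. Of these 6, mt-Tm alone is annotated on the heavy-strand transcript. Whether the counting used strand is not given in the sources used here. The division by strand thus follows the annotation and does not show which strand the reads came from.

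Fits that kept genes of low count called 1 transfer RNA, mt-Te, and no other in any comparison. In Q20 mice it had 2 to 6 counts per library at 6 months, with a median of 4 and 32 counts over 8 libraries. At 10 months it had 0 to 4 counts, with 5 of 8 libraries at 0 and 9 counts in all. Without the filter its log2 difference between ages was -1.69 ± 0.53 (edgeR's quasi-likelihood test, adjusted p = 0.029). The limma fit on log2(FPKM + 0.1) gave -2.77 ± 0.60 (adjusted p = 5.0e-04), and that on log2(FPKM + 1) called it as well (adjusted p = 0.0029). Against wild types of the same housing, which had 1 to 8 counts (27 in all), mt-Te in Q20 mice at 10 months was called on log2(FPKM + 0.1) alone (adjusted p = 0.039). The size of the difference thus depended on the scale and rests on few counts.

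Across groups the share of mitochondrially encoded counts moved little and all lines overlapped with wild types. At 6 months the lowest, median and highest share was 9.80%, 10.6% and 11.1% in wild types housed with Q20 mice and 9.76%, 10.2% and 11.4% in those housed with Q50 mice. In Q20 mice these values were 9.56%, 10.6% and 11.6%. Q50 mice had 9.76%, 10.7% and 14.7%. Q92 mice had 9.57%, 10.3% and 13.6%, and Q140 mice had the lowest median, 10.04%, in a range of 9.08% to 11.3%. At 10 months the shares of wild types were 10.2%, 10.6% and 11.9% with Q20 housing and 9.94%, 10.3% and 11.4% with Q50 housing. Those of Q20 mice were 10.04%, 11.1% and 12.2%, and those of Q50 mice were 10.1%, 10.5% and 11.5%. Q92 mice had 10.4%, 11.2% and 12.6%, and Q140 mice had 9.48%, 10.8% and 11.8%. The ratio of a line's median to that of its wild-type reference ran from 0.952 (Q140 at 6 months) to 1.07 (Q92 at 10 months). Libraries outside the range of their wild types lay on both sides. At 6 months 1 library of Q20, 3 of Q50, 1 of Q92 and 0 of Q140 mice lay above it, and 1, 1, 1 and 2 lay below. At 10 months 2 of Q20, 1 of Q50, 2 of Q92 and 0 of Q140 mice lay above it, and 1, 0, 0 and 2 lay below. In females and males the median shares were 10.5% and 10.3% at 6 months and 11.2% and 10.7% at 10 months. No test was made on the share, which sums over the members.

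**Figure D2:**
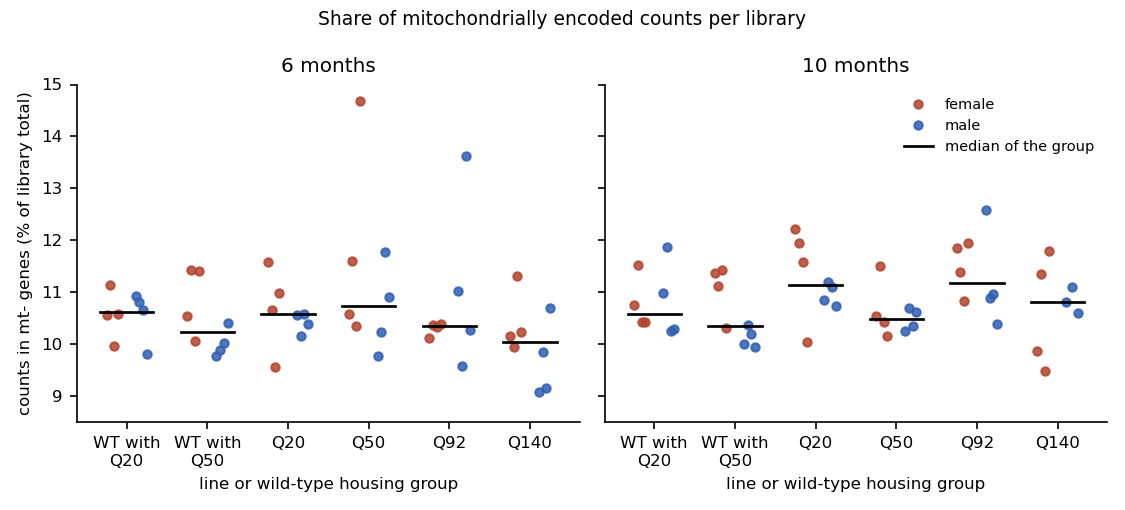
Counts in mitochondrially encoded genes as a percentage of the library total, on an axis that starts at 8.5%. Each point is a library, with females and males in separate colours, and bars are group medians. The groups overlap, and female Q50 replicate 4 (14.7%) and male Q92 replicate 3 (13.6%), both at 6 months, stand above all others.

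These 2 libraries stood apart, since the next highest share was 12.6%. They also had the 2 highest total counts, 41.1 M and 39.3 M. Relative to the mean of their own groups of line, age and sex, 13 of 15 members were higher, by 0.28 to 0.52 on the log2 scale in the Q50 library and by 0.24 to 0.43 in the Q92 library. The other 2 members, mt-Nd4l (-0.04 and -0.01) and mt-Nd5 (0.06 and 0.05), stayed at the group mean. Short nuclear genes, under 1000 bases, took 4.75% and 4.33% of their counts, against a median of 3.27% over all libraries, and long ones, over 6000 bases, took 11.3% and 11.7%, against a median of 16.5%. The comparisons of Q50 and Q92 mice with wild type at 6 months and between ages are therefore also given without these 2. So are the 6-month trend with repeat length and some of the correlations. The other results keep both libraries.

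No mitochondrially encoded gene was called different from wild type in any line at either age. The comparison asks whether a longer CAG repeat goes with a change in the RNA output of the mitochondrial genome. Over 8 comparisons and 15 members none of 120 tests passed (edgeR quasi-likelihood test, Benjamini-Hochberg adjustment over all genes tested, threshold 0.05), and 11 had an unadjusted p under 0.05. That unadjusted threshold was passed by 398 (Q20 at 6 months) to 3801 (Q20 at 10 months) of all genes tested in a comparison. Of all genes tested at 6 months, 0.0169% were called in Q20, 0.0226% in Q50, 7.83% in Q92 and 3.52% in Q140 mice, and at 10 months 4.35%, 0.0561%, 0.853% and 1.2%. By the DESeq2 Wald test the count was 0 in all 8 comparisons, and by limma voom with quality weights it was 1, mt-Nd4 in Q20 mice at 10 months. The 95% intervals of the 120 log2 differences lay between -0.27 and 0.33. Most members varied together within groups, with a median correlation of 0.92 among 11 of the protein genes. Counts of members above or below 0, here and below, are therefore not counts of independent observations.

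**Figure D3:**
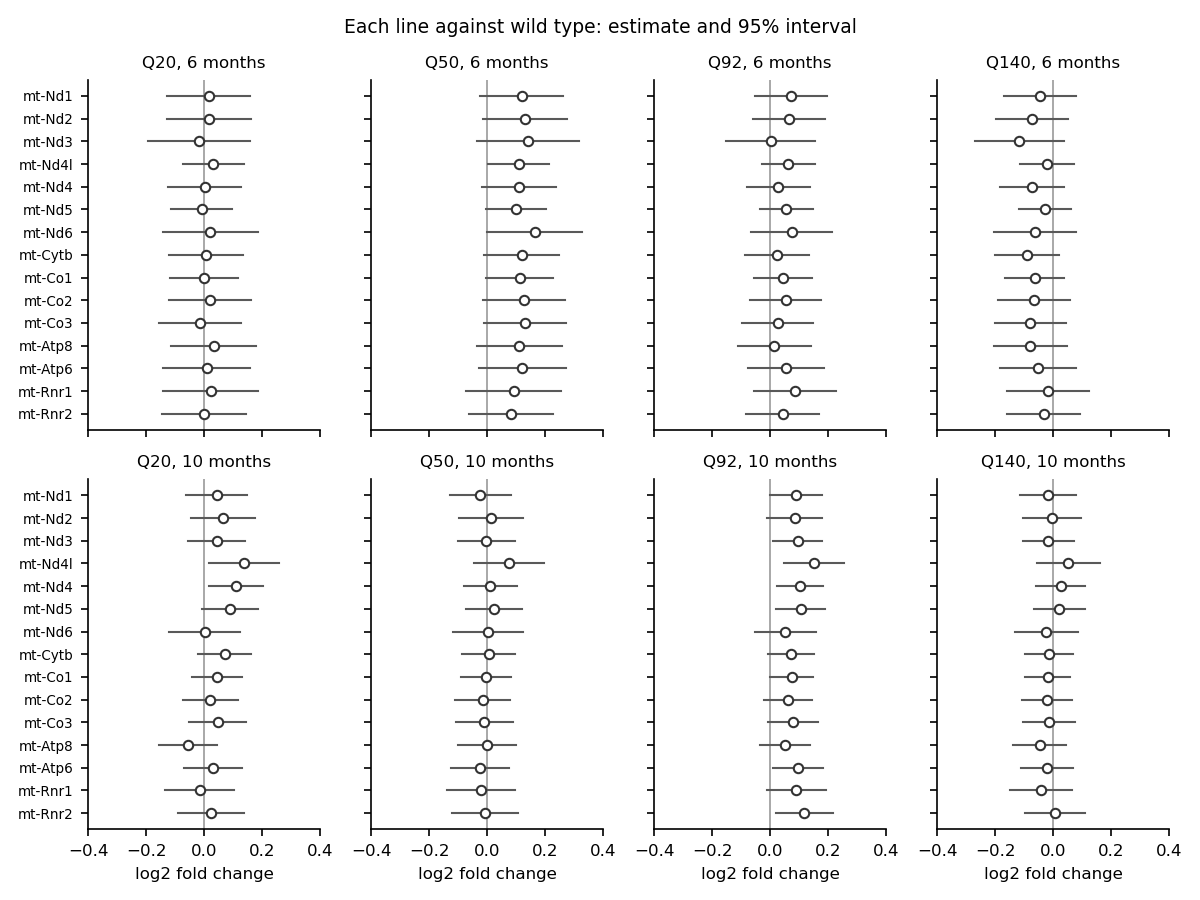
Log2 fold change of 15 mitochondrially encoded genes in each line against its wild-type reference, at 6 months (top) and 10 months (bottom). Points are estimates and bars 95% intervals, and points would be filled where called. No gene was called, and the intervals lie between -0.27 and 0.33.

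In Q20 mice, whose repeat is in the normal range, the members' median log2 difference at 6 months was 0.01, with 12 of 15 above 0. At 10 months it was 0.04, with 13 of 15 above 0. The member with the smallest p was mt-Nd4 (0.11 ± 0.05 SE, adjusted p = 0.15), a proton-pumping subunit of complex I. It was called without female Q20 replicate 4 at 10 months (0.14, adjusted p = 0.028). In Q50 mice at 6 months all 15 differences were positive, with a median of 0.12. An unadjusted p under 0.05 was found for 2 members, beside 1045 of the 17716 genes tested. Without the 2 libraries of high share the members' median was 0.05. At 10 months the Q50 median was 0.00, with 6 of 15 above 0.

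In Q92 mice at 6 months all 15 differences were positive, with a median of 0.05, and without the 2 libraries of high share 5 of 15 were, with a median of -0.02. At 10 months all 15 were positive with a median of 0.09, and 7 had an unadjusted p under 0.05, beside 2499 of the 17813 genes tested. mt-Nd4l led with 0.15 ± 0.05 (adjusted p = 0.15): its level was 632 to 807 CPM (median 688) in 8 Q92 libraries. In the wild types it was 535 to 742 CPM (median 617) with Q20 housing and 580 to 678 CPM (median 620) with Q50 housing, so the ranges overlapped. Summed with its copy Gm10222 the difference was 0.10 (adjusted p = 0.17). In Q140 mice at 6 months all 15 differences were negative, with a median of -0.06. The largest was mt-Nd3 (-0.12 ± 0.08, adjusted p = 0.53), a small complex I subunit, and mt-Cytb had the smallest p (-0.09 ± 0.06, adjusted p = 0.49). mt-Cytb was at 7665 to 9817 CPM (median 8594) in Q140 mice, within or below the 8386 to 10013 CPM of the wild types. At 10 months 4 of 15 were positive and the median was -0.02. The median over all genes tested was between -0.0016 and 0.0044 in these 8 comparisons. With total counts in place of TMM scaling 13 of 15 differences were positive in Q92 mice at 6 months, while the other counts of 15 and of 0 above held under the 3 scalings tried. The 4 markers of choroid plexus, a secretory tissue of the ventricles, moved with the groups at 6 months: their summed level was 12.8 to 1053 CPM in wild types, with a median of 21.4 CPM, and 11.01 to 2517 CPM in knock-in mice, with a median of 403 CPM. In Q92 and Q140 mice at 6 months 3 of these 4 markers were called higher than in wild types. Their part in the members' differences was not tested.

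Along the 4 knock-in lines no member was called in the trend with repeat length, where 1.83% of all genes were called at 6 months and 0.87% at 10 months. All 15 slopes were negative at both ages, with medians of -0.09 and -0.03 per 100 repeats, and none had an unadjusted p under 0.05, while DESeq2 and limma voom called 0 as well. With total counts alone 2 of the 10-month slopes were positive. The intervals of the slopes lay between -0.29 and 0.12 at 6 months and between -0.15 and 0.11 at 10 months. Without the 2 libraries of high share all 15 slopes at 6 months stayed negative, with a median of -0.08. None was then called by the edgeR test, with a lowest adjusted p of 0.14. Since the lines were separate cohorts, a trend over them and a difference between cohorts cannot be told apart.

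The wild types of the 2 housings, 1 pair of groups at each age, show a difference between groups of the same genotype. At 6 months no member was called by edgeR (0.0903% of all genes were), DESeq2 or limma voom, none had an unadjusted p under 0.05, and the differences, housed with Q20 minus housed with Q50, ran from -0.08 to 0.10 with a median of 0.02. At 10 months no member was called either, where 7.03% of all genes were. All 15 differences were positive (14 with total counts alone). An unadjusted p under 0.05 was found for 4 members, beside 4115 of the 17813 genes tested, so this count is close to the background. mt-Rnr1 was closest (0.17 ± 0.06, adjusted p = 0.060), with 3126 to 3983 CPM (median 3244) against 2663 to 3257 CPM (median 3036). The adjusted p of mt-Rnr1 fell to 0.046 with the DESeq2 Wald test, to 0.048 with scaling that left out the mitochondrially encoded genes, and to between 0.046 and 0.049 without any of 6 libraries. These were female Q140 replicates 1 and 4, male Q50 replicate 3, male Q92 replicate 4, and replicate 2 of the females and of the males housed with Q50 mice. mt-Atp8 (0.14 ± 0.05, adjusted p = 0.082) and mt-Rnr2 (0.14 ± 0.06, adjusted p = 0.12) came next. At 10 months the largest difference of a line from wild type was 0.15, for mt-Nd4l in Q92 mice, below the 0.17 between wild types. At 6 months the lines reached 0.16 (mt-Nd6 in Q50 mice) and -0.12 (mt-Nd3 in Q140 mice), beyond the range between the wild types of that age. Without the 2 libraries of high share the highest difference in Q50 mice was 0.11, close to the 0.10 between wild types. The lowest in Q140 mice stayed at -0.12.

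No member was called between females and males by the edgeR test, where 2.37% of all genes were called at 6 months and 3.49% at 10 months. mt-Nd5, a subunit of the proton-pumping arm of complex I, came closest. At 6 months it was at 4818 to 6066 CPM (median 5454) in females and 4357 to 5789.9 CPM (median 5174) in males, and at 10 months at 5129.6 to 6806 CPM (median 5881) and 5068 to 6157 CPM (median 5552). The sexes overlapped at both ages. The log2 difference, female minus male, was 0.09 ± 0.03 (adjusted p = 0.13) at 6 months and 0.09 ± 0.03 (adjusted p = 0.057) at 10 months. At an unadjusted p under 0.05 there was 1 member at 6 months, beside 2480 of the 17716 genes tested. There were 3 members at 10 months, beside 3220 of 17813, so neither count stands out from the background. mt-Nd5 at 10 months was called by the DESeq2 Wald test (adjusted p = 0.034), by limma voom (0.041), with total counts alone (0.047) and with the replicate number as a block (0.023), and limma voom also called it at 6 months (0.033). It was also called without any of 8 libraries at 10 months: female replicates 1 and 3 of Q140, 4 of Q20, 4 of Q50 and 4 of both wild-type groups, and male replicate 1 of both wild-type groups (adjusted p = 0.012 to 0.0499).

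Between 6 and 10 months, mt-Nd4l was called higher at the older age in 4 of the 6 groups and mt-Nd5 in 3, and other members were called in Q20 and Q50 mice. In the mean of the wild types both rose, mt-Nd4l by 0.14 ± 0.04 (adjusted p = 0.0089) and mt-Nd5 by 0.10 ± 0.04 (adjusted p = 0.025). That is 2 of 15 members, where 9.56% of all genes were called higher and 13.4% lower, so the count is close to the background. The labels do not say whether the ages were prepared together, so age and library preparation cannot be told apart. The share of short nuclear genes also moved with age, from a median of 3.35% at 6 months to 3.17% at 10 months, and that of long ones from 16.3% to 16.8%, and their part in the result was not tested.

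mt-Nd4l, a small membrane subunit of complex I, was measured at 534 to 653 CPM (median 596) at 6 months and 535 to 742 CPM (median 617) at 10 months in wild types housed with Q20 mice. In those housed with Q50 mice it was at 489 to 600.5 CPM (median 560.4) and 580 to 678 CPM (median 620). In Q20 mice the values were 529 to 663 CPM (median 612) and 606 to 759 CPM (median 687), and in Q50 mice 538 to 647 CPM (median 598) and 601 to 727 CPM (median 646). In Q92 mice they were 564 to 635 CPM (median 588) and 632 to 807 CPM (median 688), and in Q140 mice 489 to 689 CPM (median 551) and 538 to 716 CPM (median 680.4). The median was higher at 10 months in all 6 groups, and the ranges overlapped in each. mt-Nd4l rose by 0.20 ± 0.06 in Q20 (adjusted p = 0.0086), 0.23 ± 0.06 in Q92 (0.0016), 0.21 ± 0.06 in Q140 (0.0069) and 0.17 ± 0.06 in the wild types housed with Q50 mice (0.025). It was 0.14 ± 0.06 in Q50 mice (adjusted p = 0.054) and 0.10 ± 0.06 in wild types housed with Q20 mice (0.30), neither of them called.

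Counts assigned to the nuclear copy of mt-Nd4l gave smaller estimates between ages, and the difference from mt-Nd4l was not tested. As reads that fit both genes were divided, these counts do not measure the copy alone. Gm10222 differed by 0.03 ± 0.05 (adjusted p = 0.75) in the mean of the wild types and was not called in any of the 6 groups, with values from -0.06 in Q50 to 0.16 in Q20 mice. Summed with Gm10222, mt-Nd4l was higher by 0.09 ± 0.03 (adjusted p = 0.043) in the mean of the wild types, 0.19 ± 0.05 in Q20 (0.0043), 0.18 ± 0.05 in Q92 (0.0033) and 0.19 ± 0.05 in Q140 (0.0053). In wild types housed with Q50 mice the sum was no longer called (0.12 ± 0.05, adjusted p = 0.082), and leaving out any of 5 libraries of that group also ended the call of mt-Nd4l (adjusted p = 0.051 to 0.077). These 5 were female replicate 1 and male replicate 1 at 6 months and female replicates 1, 2 and 3 at 10 months.

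mt-Nd5 was at 4818 to 5979.7 CPM (median 5381) at 6 months and 5068 to 6229.5 CPM (median 5569) at 10 months in wild types housed with Q20 mice, and at 4357 to 6014 CPM (median 5172) and 5227 to 6019.8 CPM (median 5584) in those housed with Q50 mice. In Q50 mice the values were 4851 to 5867 CPM (median 5549) and 5404 to 6773 CPM (median 5553). It was at 4997 to 5907 CPM (median 5215) at 6 months and 5099 to 6806 CPM (median 5971) at 10 months in Q20 mice. In Q92 mice the values were 4819 to 5789.9 CPM (median 5398) and 5469.6 to 6388 CPM (median 6114), and in Q140 mice 4472 to 6066 CPM (median 5137) and 5189 to 6287 CPM (median 5772). The ranges overlapped in all 6 groups. mt-Nd5 rose in the last 3 lines, by 0.18 ± 0.05 in Q20 (adjusted p = 0.0086), 0.16 ± 0.05 in Q92 (0.015) and 0.16 ± 0.05 in Q140 (0.025). The Q20 and Q92 calls held under every setting tried, while the Q140 call ended when the L code, a part of each library's name, was a factor (adjusted p = 0.11) and without any of 8 Q140 libraries (0.052 to 0.082). These were females 1 and 2 and males 1, 2 and 3 at 6 months, and female 2 and males 2 and 3 at 10 months. In Q50 mice the difference was 0.05 ± 0.05 (adjusted p = 0.47). It was 0.12 ± 0.05 (0.079) in wild types housed with Q50 mice and 0.09 ± 0.05 (0.31) in those housed with Q20 mice. In the mean of the wild types the call of mt-Nd5 ended without any of 4 libraries, all of 6 months but the second (adjusted p = 0.054 to 0.056): with Q20 housing female 4 and, at 10 months, female 2, and with Q50 housing female 1 and male 1.

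**Figure D4:**
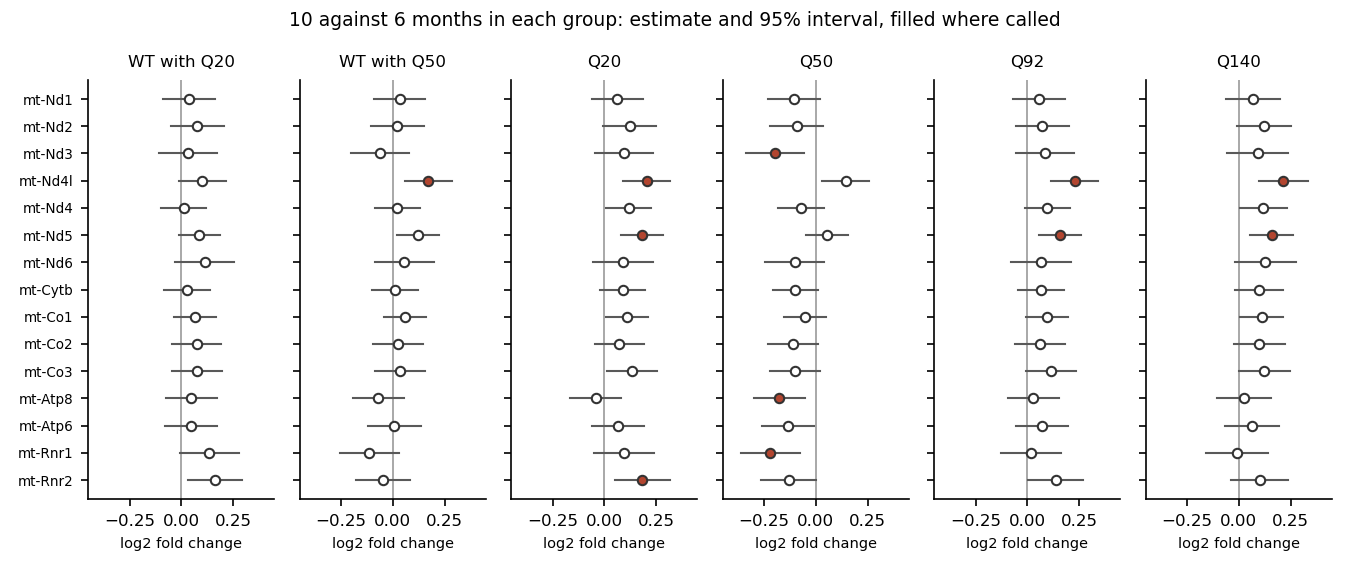
Log2 fold change of 10 against 6 months for 15 mitochondrially encoded genes in the 6 line and housing groups. Points are estimates, bars 95% intervals, and filled points are called at an adjusted p under 0.05. mt-Nd4l is filled in 4 groups, and mt-Nd5 in Q20, Q92 and Q140 mice.

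The other calls between ages were lost under several settings. In Q20 mice, where 5.82% of all genes were called higher, mt-Rnr2 made the third call (0.18 ± 0.07, adjusted p = 0.046), with 4072 to 5089 CPM (median 4621) at 6 and 4829 to 5596 CPM (median 5209) at 10 months. It ended without any of 11 of the 16 Q20 libraries (adjusted p = 0.054 to 0.11): females 2 and 3 and all 4 males at 6 months, and females 1, 2 and 3 and males 2 and 4 at 10 months. It also ended with total counts alone (0.070), without the filter (0.069) and on both log2 FPKM scales (0.057). In Q50 mice, where 13.7% were called lower, mt-Rnr1 (-0.22 ± 0.07, adjusted p = 0.018), mt-Atp8 (-0.18 ± 0.06, 0.028) and mt-Nd3 (-0.20 ± 0.07, 0.030) fell. mt-Rnr1 was at 2836 to 4335 CPM (median 3453) at 6 months and 2732 to 3278 CPM (median 2913) at 10 months there. Without female Q50 replicate 4 of 6 months, the library with the highest share, none of the 3 was called (adjusted p = 0.12, 0.21 and 0.36), nor was any by limma voom (0.097, 0.21 and 0.35). mt-Atp8 also lost its call without female Q50 replicate 4 of 10 months (0.069) or male Q50 replicate 3 of 6 months (0.054), and mt-Nd3 without the former (0.052).

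In Q92 mice 2 members were called with all libraries, where 11.8% of all genes were called higher. Without male Q92 replicate 3 of 6 months 6 were called, and without both libraries of high share 10, all upwards. Shares of all genes called in these refits are not given here, so the larger counts have no background beside them. In Q140 mice 2 were called (7.51% of all genes higher), and in wild types housed with Q50 mice 1 (7.35% higher). In wild types housed with Q20 mice 0 were called (9.17% in either direction), and both DESeq2 and limma voom called 0 as well. An unadjusted p under 0.05 was found there for 1 member, beside 4035 of the 18187 genes tested. The count of 1 in wild types housed with Q50 mice became 2 without their female replicate 4 of 6 months.

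Whether a line's difference from wild type changed with age was tested directly, and no member was called in 60 tests, with none at an unadjusted p under 0.05. Of all genes 0.693% were called in Q20, 0% in Q50, 9.63% in Q92 and 1.79% in Q140 mice. The intervals lay between -0.36 and 0.28, and both DESeq2 and limma voom called 0 as well. The age calls in some groups and not in others therefore do not show that the groups differ.

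Within groups of line, age and sex most protein members varied together, while the ribosomal RNAs, mt-Nd4l and mt-Nd5 followed the others less closely. Among the 11 protein genes other than mt-Nd4l and mt-Nd5, the 55 pairwise Pearson correlations of log2 CPM over 95 libraries, after removal of group means, lay between 0.76 and 0.98 (median 0.92). mt-Rnr1 and mt-Rnr2 were correlated at 0.97 with each other and at 0.64 and 0.64 with the sum of the other members. mt-Nd4l and mt-Nd5 were correlated at 0.75 with each other, at 0.52 and 0.59 with the sum of the others, and at 0.00 to 0.07 with the ribosomal RNAs. Without the 2 libraries of high share the values with the sum were 0.68 for mt-Nd4l, 0.67 for mt-Nd5, 0.49 for mt-Rnr1 and 0.51 for mt-Rnr2, so that the ribosomal RNAs were then the lowest. mt-Nd4l and its neighbour mt-Nd4, which share an RNA, were correlated at 0.62, and mt-Atp8 and mt-Atp6 at 0.81. Libraries share depth and composition across members, so these values are descriptions.

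The share also varied with the lengths of the nuclear genes that made up the rest of the library. Over 95 libraries and after removal of group means, log2 share was correlated at 0.63 (Spearman 0.43) with the log2 share of 548 short genes and at -0.76 (Spearman -0.58) with that of 1123 long genes. Without the 2 libraries farthest from the median of the measure the values were 0.45 and -0.65. At 6 months they were 0.81 and -0.84, and at 10 months 0.26 and -0.58. Over genes of at least 10 CPM the median correlation with the share fell with length, from 0.46 in the class under 1000 bases to 0.29 at 1000 to 2000, -0.06 at 2000 to 4000, -0.36 at 4000 to 6000 and -0.55 above 6000 bases. Shares of a whole are not independent, and total counts and composition are common to all points.

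**Figure D5:**
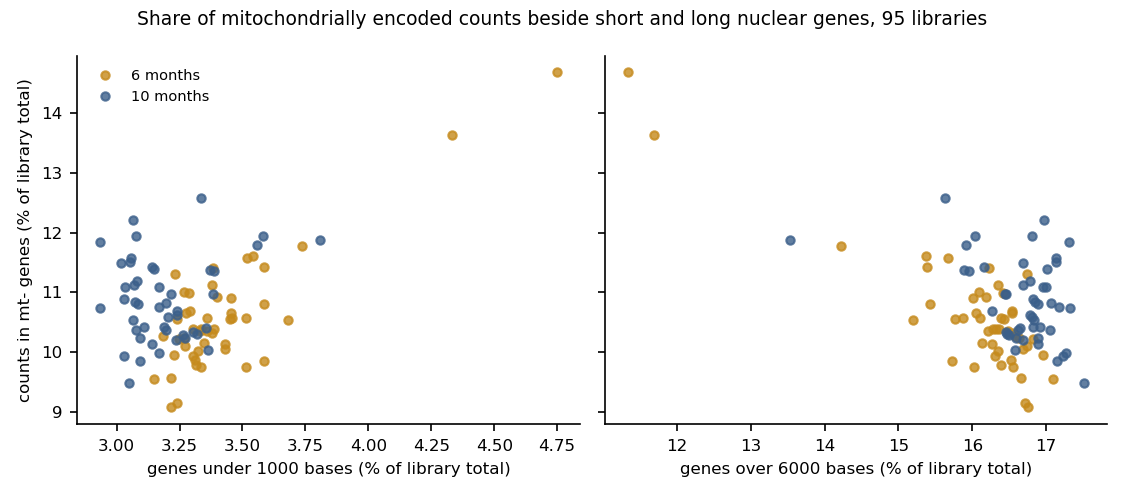
Share of mitochondrially encoded counts against the share of nuclear genes under 1000 bases (left) and over 6000 bases (right), both in percent of the library total. Each point is a library, coloured by age. The 2 libraries at the top have 4.75% and 4.33% in short genes and 11.3% and 11.7% in long genes.

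Outside the members, the genes whose level ran most like the share were Rps4x (0.81), Atp5mpl (0.78), Gabarap (0.77), Rps24 (0.77) and Rpl7 (0.76), among 10092 genes of at least 10 CPM. Rps4x, Rps24 and Rpl7 encode cytosolic ribosomal proteins, Atp5mpl a small subunit of ATP synthase and Gabarap a protein of autophagosomes. Most opposed were Slc12a5 (-0.83), the neuronal potassium chloride cotransporter, Dync1h1 (-0.83), the heavy chain of dynein, Eif4g1 (-0.83), Kcnc1 (-0.82) and Trio (-0.81). Without the 2 libraries of high share these correlations were 0.61 to 0.69 and -0.71 to -0.76. The lengths implied by the authors' values were 365 to 1124 bases in the first set and 4560.2 to 13703 bases in the second.

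Of the markers of cortical excitatory neurons, all 4 were found in every library, with Slc17a7, a glutamate transporter, at 746 to 1183 CPM. Markers of neighbouring tissue varied widely between libraries: Ttr of the choroid plexus was at 6.17 to 2436 CPM, Cdhr1 of the olfactory bulb at 2.30 to 54.8 CPM, and Ppp1r1b and Rgs9 of the striatum at 49.5 to 213 and 9.47 to 111 CPM. Summed markers of 11 cell types were correlated with the share, over 95 libraries and after removal of group means, between -0.25 for choroid plexus and 0.48 for microglia. The values differed by age: at 6 and 10 months they were 0.68 and 0.24 for microglia and -0.39 and -0.07 for choroid plexus. For cortical excitatory neurons they were -0.02 and -0.46. The 4 microglial markers summed to 120 to 157 CPM. Of all markers found, Lhx8 (14 libraries) and Eomes (7 libraries) alone were at 0 in some library. The part of these cells in the share was not tested.

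Nuclear genes that serve the mitochondrial genome were called with genotype in low numbers, in comparisons where at most 7.83% of all genes were called. Of 61 listed genes of its transcription, replication, RNA processing and regulation, 59 were tested. In any line at either age at most 1 rose and 1 fell against wild type. Of all genes between 0.0169% (Q20) and 7.83% (Q92) were called, both at 6 months, and 4.35% in Q20 mice at 10 months. The list's counts in Q92 mice at 6 months and in Q20 mice at 10 months were thus not above the background. In Q92 mice at 6 months Nsun3, which modifies the mitochondrial methionine transfer RNA, rose by 0.24 ± 0.05 (adjusted p = 0.0018) and Fastkd1, an RNA-binding protein of mitochondria, fell by 0.11 ± 0.03 (adjusted p = 0.042), in edgeR's quasi-likelihood test. In Q20 mice at 10 months Fastkd2 rose by 0.13 ± 0.04 (adjusted p = 0.039) and Mrpl12 fell by 0.16 ± 0.05 (adjusted p = 0.049). The list's median log2 difference stayed between -0.02 and 0.02 in these comparisons, beside a median of all genes near 0. Of 21 nuclear genes taken as a measure of mitochondrial content, 2 fell in Q20 mice at 10 months, Tomm40 by 0.18 ± 0.05 (adjusted p = 0.039) and the ADP and ATP carrier Slc25a4 by 0.12 ± 0.03 (adjusted p = 0.042), and none was called in the other 7 comparisons. Between the wild-type groups at 10 months 7.03% of all genes were called. Of the listed genes Tomm20, a receptor of the outer membrane import complex, was lower with Q20 housing (-0.13 ± 0.03, adjusted p = 0.0045). So were Ppargc1a, a coactivator of mitochondrial biogenesis (-0.15 ± 0.04, 0.027), and Primpol, a primase and polymerase (-0.27 ± 0.08, 0.031).

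With age some of these nuclear genes were called in each direction. In the mean of the wild types 7 of 59 genes of mitochondrial DNA expression rose and 10 fell. These counts are close to the background of 9.56% of all genes called higher and 13.4% called lower. Nsun3 rose by 0.24 ± 0.04 (adjusted p = 6.7e-06) and Grsf1, of the mitochondrial RNA granules, by 0.10 ± 0.02 (adjusted p = 4.3e-04), while Polrmt, the polymerase, fell by 0.23 ± 0.05 (adjusted p = 7.2e-05) and Esrra, a nuclear receptor of mitochondrial genes, by 0.25 ± 0.05 (adjusted p = 8.1e-05). Of the 21 content genes 5 rose and 1 fell. Cs, citrate synthase, rose by 0.06 ± 0.01 (adjusted p = 0.0019) and Tomm40 fell by 0.12 ± 0.03 (adjusted p = 0.0047). The counts of content genes stand beside the same 9.56% of all genes called higher and 13.4% called lower, and the list was not tested as a set. The ratio of mitochondrially encoded counts to the summed counts of the content genes was 23.3 to 35.3 at 6 months (median 27.2) and 24.6 to 33.7 at 10 months (median 28.1).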

How the data were processed

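The authors deposited estimated counts per gene, with fractions of reads, and FPKM per gene for each library, per the file headers. The submitters' processing notes name CASAVA 1.8.2, while the sources used here give no aligner, counter, build, annotation or strand setting. Symbols were looked up for 37607 of 39179 Ensembl identifiers. Estimated counts were rounded and tested with edgeR 4.0.16 (R 4.3.3; quasi-likelihood test, TMM scaling, filterByExpr with a minimum count of 10), with sex as a covariate and Benjamini-Hochberg adjustment over the 17716 genes tested at 6 months, 17813 at 10 months and 18187 over both ages. Calls have an adjusted p under 0.05. The reference of Q20 and of Q50 mice was the wild-type group caged with them, and that of Q92 and Q140 mice the mean of both wild-type groups. The members and gene lists were chosen with earlier results of these data known. Named transfer RNAs are the 6 highest, named nuclear genes are up to 4 called list members of smallest p, and the genes most like the share are the 5 highest and 5 lowest correlations. The alternatives were other scalings, filters and units (log2 FPKM with a pseudocount of 0.1 or 1), DESeq2 1.42.0, limma 3.58.1, the replicate number or L code as a factor, single sexes, other wild types and leaving out each library. Leaving out 2 libraries of high share, summing mt-Nd4l with Gm10222, and part of the alternatives for the ages were chosen after seeing the data. Fits were tested on simulated counts. No 2 libraries had identical values. Nuclear copies were matched with blastn 2.17.0 to the GENCODE M21 transcripts.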

Additional observations from a re-analysis of the deposited data

Results flagged for a closer look

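In groups of 4 libraries, the share of counts in the mitochondrial ribosomal RNAs had a library far from the others in 2 of the 69 groups and measures examined. Male Q140 replicate 2 at 6 months had 0.900% of its counts there, against 0.747% to 0.751% in the other 3 males. Among males of 10 months housed with Q20 mice, wild-type replicate 2 had 0.999%, against 0.783% to 0.813%. Chance alone marks about 1 in 20 such groups. No member differed between ages in its line effect in 60 tests of that difference.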

How the results depend on the processing

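Of 325 counts of called members under another setting, 307 were within 1.5 times the reported count, and the ratios of median share to wild type moved by less than 1 SD in all 24 alternatives. With limma voom 1 member was called between the sexes at each age, 1 in Q20 mice at 10 months, and between ages 8 in Q20 and 8 in Q92 mice and 1 in Q50 mice, a higher one in place of the 3 lower ones reported. DESeq2's Wald test called 1 between wild-type housings and 1 between sexes, both at 10 months. Log2(FPKM + 0.1) called 1, mt-Te, lower in Q20 mice at 10 months. Between housings at 10 months, scaling without the members and males alone each called 1. Total counts alone called 1 between sexes at 10 months and 1 between ages in wild types. The L code as a factor left 1 call between ages in Q140 mice, and summing mt-Nd4l with Gm10222 left 0 in wild types housed with Q50 mice. Without both libraries of high share, 0 members were called between ages in Q50 mice and 10 in Q92 mice. Under these settings 387 of the 409 log2 fold changes followed stayed on their side of the threshold, 14 lost and 8 gained the call. The cause of these moves was not tested. Shares of all genes called under the other settings, or without single libraries, are not given here. These counts therefore have no background beside them and are not results about the members.

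Same-numbered replicates did not vary together on the median (correlation of deviations 0.003 at 6 months and -0.03 at 10 months). No pairing by number was thus seen, but a median over many pairs cannot exclude a weak one. With the replicate number as a block, 1 member (mt-Nd5) was called between sexes at 10 months, and no other count moved by over 1.5 times.

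Leaving out single libraries gave 0 to 1 calls in Q20 mice, between housings and between sexes at 10 months. Between ages it gave 2 to 4 calls in Q20, 0 to 4 in Q50, 2 to 6 in Q92 and 1 to 2 in Q140 mice, 1 to 2 in the mean of the wild types, 0 to 2 in wild types housed with Q50 mice and 0 in those housed with Q20 mice. It gave 0 in every other comparison in which it was run. Of the log2 fold changes followed, 1946 of 1995 stayed on their side of the threshold without a single library, 34 lost and 15 gained the call. The ratio of median share to wild type ranged from 0.942 to 0.962 in Q140 and from 1.03 to 1.07 in Q50 mice at 6 months, and from 1.05 to 1.09 in Q92 mice at 10 months, without single libraries. It ranged from 0.992 to 0.9998 in Q20 and from 0.979 to 0.982 in Q92 mice at 6 months. At 10 months it ranged from 1.04 to 1.07 in Q20, 1.01 to 1.02 in Q50 and 1.03 to 1.05 in Q140 mice. Of the members the transfer RNAs rest on the fewest counts, with at most 19 in a library.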
